A study of Mus musculus with 24 samples.

Results

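The genes described are 4 fibroblast growth factors (Fgf2, Fgf7, Fgf10 and Fgf21), hepatocyte growth factor (Hgf), the 4 receptors Fgfr1, Fgfr2, Fgfr3 and Fgfr4, and Met, the receptor of hepatocyte growth factor. They were taken as every probe set of the array that its annotation assigned to a single one of these 10 symbols, which gave 18 probe sets, among 12393 genes with a probe set of their own. A total of 7 of the 10 were bright enough to test: Fgf2 and Fgf10 lay above the 40th percentile of the probe sets on 0 of 24 arrays and Met on 1, and genes above it on fewer than 3 arrays were set aside, which left 8597 genes. Levels are log2 values as the authors deposited them, quantile normalised here over all arrays, and a gene stands for its brightest probe set.

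The cells were C2C12, a mouse myoblast line that divides in serum, leaves the cycle when held in suspension and fuses into myotubes in low serum. All 8 groups received an siRNA, either against Ift88, a subunit of the intraflagellar transport complex that builds cilia (called IFT88KD), or a negative control (called control), and none was left untreated. Each siRNA was studied in 4 states with 3 arrays per group: proliferating cells attached in medium with 20% FBS, quiescent cells kept in suspension in the same medium, replated cells 2 h after their return from suspension, and differentiating cells after 48 h in medium with 2% NHS. The labels do not say whether arrays of a group came from separate cultures, so p-values measure the spread between these arrays, which may be technical, and their number limits the precision. Any processing that differed between states cannot be told apart from the state.

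Fibroblast growth factors are secreted ligands that bind receptor tyrosine kinases together with heparan sulphate chains, and the bound receptors signal through adaptor proteins, Ras and the MAP kinases. In muscle they are best known for keeping myoblasts in division and holding back their differentiation. Hepatocyte growth factor is secreted as an inactive chain, is cut by serine proteases and, through Met, is a classic signal for waking quiescent muscle stem cells.

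The sequence just upstream of the start is given for the ligands on which the results turn: Fgf7 and Hgf, which differed between the siRNAs in quiescent cells, and Fgf21, with the widest range over the states among these 10 genes. RefSeq (GRCm38.p6) entries existed for 9 of the 10 genes, and each window holds the 250 bases before a start. Capitals mark matches, on either strand, to an E-box (CANNTG), an AP-1 motif (TGANTCA), an ATF4-type motif (TGATGNAA) or a Gli motif (GACCACCCA), and no match overlapped another. Fgf7 is at chr2:126034408-126034657 (+ strand), Fgf21 at chr7:45615491-45615740 (- strand), and the 2 Hgf starts at chr5:16553245-16553494 and chr5:16553651-16553900 (+ strand).
Fgf7: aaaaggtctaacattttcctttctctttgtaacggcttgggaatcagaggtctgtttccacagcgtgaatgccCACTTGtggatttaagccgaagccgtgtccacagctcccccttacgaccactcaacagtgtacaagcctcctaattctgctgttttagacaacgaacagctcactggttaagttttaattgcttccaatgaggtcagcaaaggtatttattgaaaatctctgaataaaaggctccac
Fgf21: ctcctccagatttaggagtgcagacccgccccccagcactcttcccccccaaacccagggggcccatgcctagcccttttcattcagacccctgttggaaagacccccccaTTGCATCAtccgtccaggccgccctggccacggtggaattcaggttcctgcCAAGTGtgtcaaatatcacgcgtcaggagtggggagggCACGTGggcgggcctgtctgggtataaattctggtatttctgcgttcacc
Hgf, upstream start: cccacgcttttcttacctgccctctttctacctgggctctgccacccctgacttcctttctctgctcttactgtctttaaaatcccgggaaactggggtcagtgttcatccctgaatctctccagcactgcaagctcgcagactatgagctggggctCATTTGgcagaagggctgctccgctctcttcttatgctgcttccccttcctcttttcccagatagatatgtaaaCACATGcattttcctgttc
Hgf, downstream start: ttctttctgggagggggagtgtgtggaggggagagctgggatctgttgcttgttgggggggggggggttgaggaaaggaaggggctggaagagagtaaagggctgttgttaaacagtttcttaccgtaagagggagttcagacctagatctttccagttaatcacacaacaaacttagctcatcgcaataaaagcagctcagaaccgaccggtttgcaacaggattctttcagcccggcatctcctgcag
The Fgf7 window held 1 E-box match, the first Hgf window 2 and the second 0. The Fgf21 window held 2 E-box matches and 1 ATF4-type match. Over the 32851 windows of this length, 66.2% held an E-box match, 6.75% an AP-1 match, 3.45% an ATF4-type match and 0.225% a Gli match. A match describes letters, not a bound site.

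Some facts of the whole series bear on what follows. Ift88 fell by 0.70 log2 in quiescent and by 0.75 in replated IFT88KD cells (limma, adjusted p = 0.0178 and 0.0198). Its change was -0.50 in proliferating cells (adjusted p = 0.439), with all 3 IFT88KD arrays below the control arrays, and -0.02 in differentiating cells (adjusted p = 0.999). Of 7 myoblast markers 6 passed the filter, with Pax7 above the 40th percentile on no array, and 0 of 5 endothelial and 0 of 5 epithelial markers passed. In these bulk samples, fewer cells of a type and less RNA per cell cannot be told apart.

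**Figure D1:**
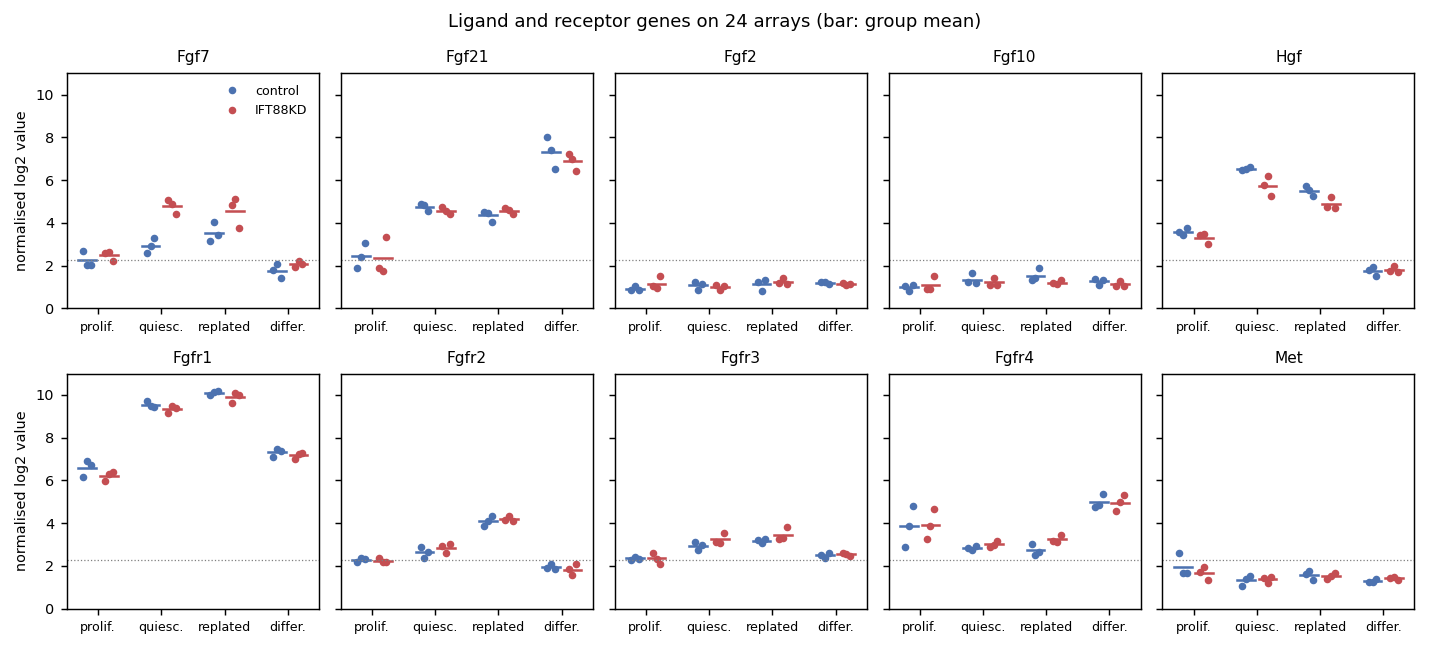
Normalised log2 value (vertical axis) of each of the 10 genes on the 24 arrays, by state (horizontal axis; proliferating, quiescent, replated, differentiating) and siRNA (blue control, red IFT88KD). Points are arrays, bars are group means of 3, and the dotted line is the mean 40th percentile of the arrays (2.29); Fgf7 and Hgf separate by siRNA in quiescent cells, and Fgf21 reaches its highest values in differentiating cells.

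The first question was how IFT88 siRNA altered these genes within each state. In quiescent cells Fgf7, a ligand best known for acting on the epithelial splice form of Fgfr2, was higher in IFT88KD cells. The control arrays read 2.58, 2.94 and 3.30 and the IFT88KD arrays 5.08, 4.90 and 4.43. Every IFT88KD array lay above every control array. The means were 2.94 ± 0.36 and 4.80 ± 0.33 (SD, n = 3), a rise of 1.86 log2 or 3.64-fold (SE 0.29, limma, adjusted p = 2.87e-04). It passed in each of 10 other settings and without any single array of either group.

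Hgf moved the other way in quiescent cells. The control arrays read 6.49, 6.52 and 6.62 and the IFT88KD arrays 5.77, 6.21 and 5.25. All IFT88KD arrays lay below the control arrays, and they were spread more widely. The means were 6.54 ± 0.07 and 5.74 ± 0.48 (SD, n = 3), so Hgf fell by 0.80 log2, 1.74-fold lower (SE 0.20, limma, adjusted p = 0.0157). A second Hgf probe set gave 5.35, 5.32 and 5.40 on control and 4.85, 4.97 and 4.27 on IFT88KD arrays, again without overlap, with a change of -0.66 (SE 0.20, adjusted p = 0.0664 over all probe sets past the filter). Hgf no longer passed after removal of IFT88KD quiescent replicate 3 (-0.56, adjusted p = 0.118), control quiescent replicate 2 (-0.81, adjusted p = 0.0542) or control quiescent replicate 3 (-0.76, adjusted p = 0.0641), over a range of 0.00233 to 0.118 among the single arrays left out. It was also lost with the arrays of the compared groups only (-0.80, adjusted p = 0.0774), the highest of its 10 settings, of which the lowest was 0.00322.

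Thus 1 of the 7 tested genes rose and 1 fell in quiescent IFT88KD cells, against 5.55% of all tested genes called (3.06% higher, 2.49% lower). The groups did not overlap for these same 2 genes, against 25.4% of all genes. The receptors gave no call there. Fgfr1, a major FGF receptor of myoblasts, changed by -0.21 (SE 0.17, adjusted p = 0.604), with one control array and one IFT88KD array both at 9.49. On its second probe set all IFT88KD arrays were lower, by 0.50 on average (-0.50, SE 0.31, adjusted p = 0.493 over probe sets). Fgfr2, whose epithelial splice form binds Fgf7, changed by 0.21 (SE 0.15), Fgfr3 by 0.30 (SE 0.15) and Fgfr4 by 0.18 (SE 0.34), each with overlapping arrays. Fgf21, an endocrine ligand that needs the co-receptor beta-Klotho, changed by -0.17 (SE 0.36).

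Summed levels of some cell type marker lists, those of myoblasts and myotubes included, differed between the siRNAs as well. The summed level of 8 macrophage markers was 8.05 to 8.07 log2 on control and 6.61 to 6.76 on IFT88KD quiescent arrays. It was 7.34 to 7.46 and 6.28 to 6.49 on replated arrays. Of the 8, Adgre1, Ptprc, Itgam, Mrc1 and Lyz2 were above the 40th percentile on no array, and Cd14 and Cd68 fell in quiescent cells (-1.56, limma, adjusted p = 7.33e-07, and -1.19, adjusted p = 2.41e-05). Cd14 made up most of the quiescent sum, with means of 7.89 in control and 6.33 in IFT88KD cells. Those of Cd68 were 2.95 and 1.76, and those of Csf1r 3.24 and 2.73. The summed level of 6 fibroblast markers was 10.16 to 10.49 on control and 9.77 to 9.87 on IFT88KD quiescent arrays, with Dpt, Col15a1 and Thy1 above the percentile on no array. Myotube markers (7 of 7 past the filter) summed to 10.45 to 10.997 on control and 11.12 to 11.73 on IFT88KD quiescent arrays, and myoblast markers to 9.71 to 9.95 and 10.14 to 10.31. On replated arrays, control and then IFT88KD, the sums were 9.39 to 9.72 and 9.08 to 9.28 for fibroblast, 9.82 to 10.31 and 10.64 to 11.06 for myotube, and 9.61 to 9.83 and 9.90 to 10.17 for myoblast markers. None of these 4 lists overlapped between the siRNAs in either state, while adipocyte and bone and cartilage sums did. By limma's test, however, 0 of 7 myotube and 0 of 6 tested myoblast markers passed in either state. Of 3 tested fibroblast markers 1 was lower in quiescent and 0 in replated cells, and of 3 macrophage markers 2 were lower in each. Of all genes 5.55% and 2.63% were called in these states. The part of these markers in the Fgf7 and Hgf results was not tested.

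In replated cells Fgf7 and Hgf had the same signs, without passing the threshold. Fgf7 read 3.14, 4.04 and 3.45 on control and 4.83, 5.10 and 3.75 on IFT88KD arrays. Only IFT88KD replicate 3 overlapped the control arrays, lying below 1 of them. The change was 1.02 (SE 0.29, limma, adjusted p = 0.0687). Hgf read 5.71, 5.54 and 5.27 on control and 4.72, 5.23 and 4.68 on IFT88KD arrays, with no overlap and a change of -0.63 (SE 0.20, adjusted p = 0.0995). Its second probe set changed by -0.50 (SE 0.20, adjusted p = 0.258 over probe sets) with overlapping arrays.

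Fgfr4, a receptor prominent in differentiating and regenerating muscle, read 3.05, 2.54 and 2.64 on control and 3.19, 3.13 and 3.45 on IFT88KD replated arrays. These arrays did not overlap either, and the change was 0.52 (SE 0.34, limma, adjusted p = 0.546). The count was therefore 0 of 7 genes, with 2 at an unadjusted p under 0.05, against 2.63% of all genes called. The arrays did not overlap for 2 of 7 genes, against 18.2% of all genes.

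Equal replicate numbers paired the control and IFT88KD arrays of a state. With this number as a block, 3 of 7 genes passed in replated cells, against 10.7% of all genes: Fgf7 (adjusted p = 0.0213), Fgfr4 (adjusted p = 0.0166) and Hgf (adjusted p = 0.0460). The adjusted p of Fgf7 ran from 0.0213 to 0.302 over the other settings. Without IFT88KD replated replicate 3 it rose by 1.42 (adjusted p = 0.00451) and without control replated replicate 2 by 1.26 (adjusted p = 0.0416). The adjusted p of Hgf ran from 0.0460 to 0.198, and it passed without IFT88KD replated replicate 2 (-0.80, adjusted p = 0.0471).

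**Figure D2:**
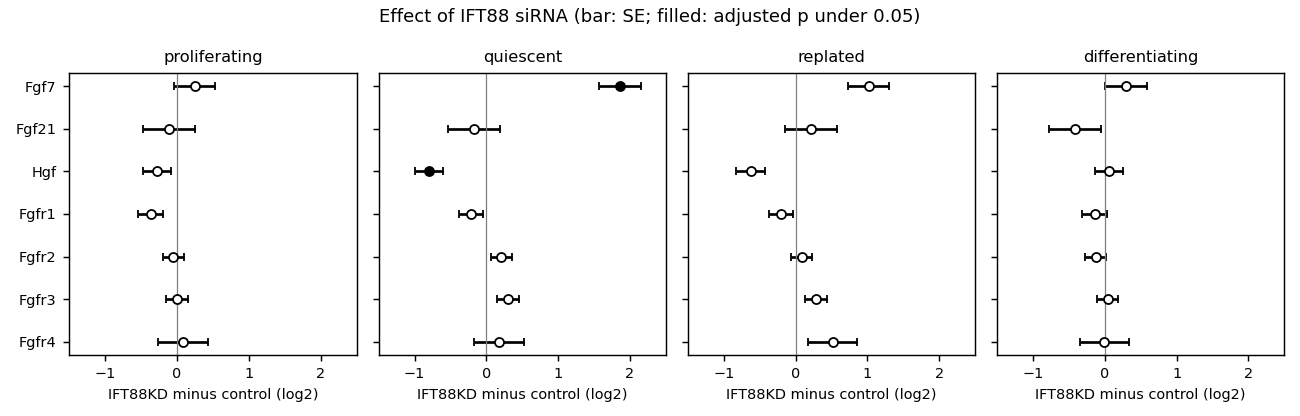
Change with IFT88 siRNA, as IFT88KD minus control in log2 units (horizontal axis), for the 7 tested genes in each of the 4 states. Points are limma estimates from 3 arrays per group, bars are their standard errors, and filled points have an adjusted p under 0.05; only Fgf7 (1.86) and Hgf (-0.80) in quiescent cells are filled.

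In proliferating and in differentiating cells 0 of 7 genes passed, against 0.326% and 0.14% of all genes in limma's test. The arrays of the groups were apart for 0 of 7 genes in both states, against 9.85% and 11.8% of all genes. At an unadjusted p under 0.05 there were 1 and 0. The 1 was Fgfr1 in proliferating cells, with control arrays at 6.15, 6.91 and 6.73 and IFT88KD arrays at 5.96, 6.31 and 6.41. The groups overlapped, and the change was -0.37 (SE 0.17, adjusted p = 0.755). It passed with array weights (-0.58, adjusted p = 0.0157). Fgf7 changed by 0.24 (SE 0.29) in proliferating and by 0.30 (SE 0.29) in differentiating cells. The changes of Hgf in these states were -0.28 (SE 0.20) and 0.06 (SE 0.20). In differentiating cells Fgf7 and Hgf lay above the 40th percentile on 0 arrays of either siRNA. In proliferating cells Fgf7 lay above it on 1 control and 2 IFT88KD arrays. These low values limit what the small changes say about an effect of the siRNA.

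Whether the effect of the siRNA differed between states was tested as an interaction. The Fgf7 effect in quiescent cells exceeded that in proliferating cells by 1.62 log2 (SE 0.41, limma, adjusted p = 0.0629). With the replicate block, which called 3.83% of all genes, its adjusted p was 0.0223, with the arrays of the compared groups only 0.0289, and over the other settings it ran from 0.0223 to 0.108. Without IFT88KD quiescent replicate 3 it was 1.81 (adjusted p = 0.0460) and without control quiescent replicate 3 it was 1.80 (adjusted p = 0.0474). The proliferating Fgf7 values in this difference lay around the 40th percentile, which makes its size uncertain. For Hgf this difference was -0.52 (SE 0.28, adjusted p = 0.650). In all, 0 of 7 genes passed, with 1 at an unadjusted p under 0.05, against 1.05% of all genes. Between replated and quiescent cells 0 of 7 passed, with 0 unadjusted, against 0% of all genes, and between differentiating and proliferating cells 0 of 7, with 0 unadjusted, against 0.0465%. These comparisons share the arrays of their common state.

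The second question was how the same genes differed between the states of control cells. In quiescent cells, set against proliferating cells, 6 of 7 genes were higher and 1 lower by limma's test, in a comparison where 70.5% of all genes passed (37.3% higher, 33.2% lower). The ligand Hgf read 3.58, 3.43 and 3.76 on proliferating arrays. It read 6.49, 6.52 and 6.62 on quiescent arrays, far above them. The change was 2.95 log2 or 7.73-fold (SE 0.20, adjusted p = 1.92e-11), and 2.89 on the second probe set (SE 0.20, adjusted p = 6.25e-11). The comparison shares its quiescent arrays with those above and below, and its proliferating arrays with that on differentiation.

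Fgf21 read 1.90, 2.38 and 3.07 on control proliferating and 4.87, 4.83 and 4.54 on control quiescent arrays. All quiescent arrays were higher, by 2.29 log2 or 4.91-fold on average (SE 0.36, limma, adjusted p = 8.98e-06). The proliferating values of Fgf21 lay around the 40th percentile, so the size of this rise is uncertain. Fgf7 read 2.67, 2.04 and 2.03 on the proliferating arrays. With quiescent control arrays at 2.58, 2.94 and 3.30 the groups overlapped, and the rise of 0.69 (SE 0.29, adjusted p = 0.0386) missed the threshold without control proliferating replicate 2 or 3 or control quiescent replicate 2 or 3 (0.51 to 0.69, adjusted p of 0.0734 to 0.164 over these 4).

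Among the receptors, Fgfr1 read 6.15, 6.91 and 6.73 on control proliferating and 9.71, 9.49 and 9.45 on control quiescent arrays. The groups were wide apart, with a rise of 2.96 log2 or 7.76-fold (SE 0.17, limma, adjusted p = 1.67e-12). A second Fgfr1 probe set, at 2.80 to 2.98 and 6.57 to 6.79, rose by 3.79 (SE 0.31, adjusted p = 9.22e-10 over probe sets). Fgfr3, a receptor best known for restraining cartilage growth, rose by 0.59 (SE 0.15, adjusted p = 0.00150) from 2.30, 2.43 and 2.33 to 3.11, 2.76 and 2.96, without overlap. Its proliferating values lay close to the mean 40th percentile of 2.29, so the size of this rise is uncertain. A second Fgfr3 probe set was above the 40th percentile on no array. Fgfr2 rose by 0.33 (SE 0.15, adjusted p = 0.0480) with overlapping arrays, and it missed the threshold in 5 of 9 other settings (adjusted p from 8.86e-04 to 0.0655 over the 9) and in 5 of 6 fits that left out a single array. On the deposited values the rises of Fgfr3 and Fgfr2 were 0.92 and 0.66. The proliferating values of Fgfr2 lay close to the 40th percentile too.

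Marker sums differed between these states too. The 6 fibroblast markers, of which 3 passed the filter, summed to 5.30 to 5.70 on control proliferating and 10.16 to 10.49 on control quiescent arrays. The 4 adipocyte markers summed to 4.05 to 4.49 and 8.94 to 9.47, with Lpl the 1 that passed, and Adipoq and Cidec above the 40th percentile on no array. Macrophage sums were 5.09 to 5.37 and 8.05 to 8.07, bone and cartilage sums (2 of 5 markers past the filter) 6.08 to 6.24 and 7.45 to 7.62, and myotube sums 6.79 to 10.02 and 10.45 to 10.997. The 2 bone and cartilage markers past the filter went opposite ways, Sox9 from a mean of 5.68 to 7.42 and Sp7 from 3.47 to 2.74. Myoblast sums were lower in quiescent cells, at 9.71 to 9.95 against 10.47 to 11.14. None of these 6 lists overlapped between the states. Their part in the changes of Hgf, Fgf21, Fgfr1 and the other receptors was not tested.

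Fgfr4 was the only one of the 7 to fall. It read 2.897, 3.86 and 4.80 on control proliferating and 2.82, 2.77 and 2.92 on control quiescent arrays. The quiescent arrays were tightly grouped, and replicate 1 of the proliferating arrays lay within their range. The change was -1.01 (SE 0.34, limma, adjusted p = 0.0124), and without control proliferating replicate 3 it was -0.54 (adjusted p = 0.133). Without that array 4 of the 7 genes passed. The summed myotube markers read 6.79, 8.82 and 10.02 on the control and 8.40, 9.13 and 10.82 on the IFT88KD proliferating arrays, in replicates 1, 2 and 3. On the same IFT88KD arrays Fgfr4 read 3.26, 3.86 and 4.68 and Fgf21 1.90, 1.77 and 3.36. Replicate 3 was thus highest and replicate 1 lowest for the markers and Fgfr4 with either siRNA, and the part of the markers in these values was not tested.

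**Figure D3:**
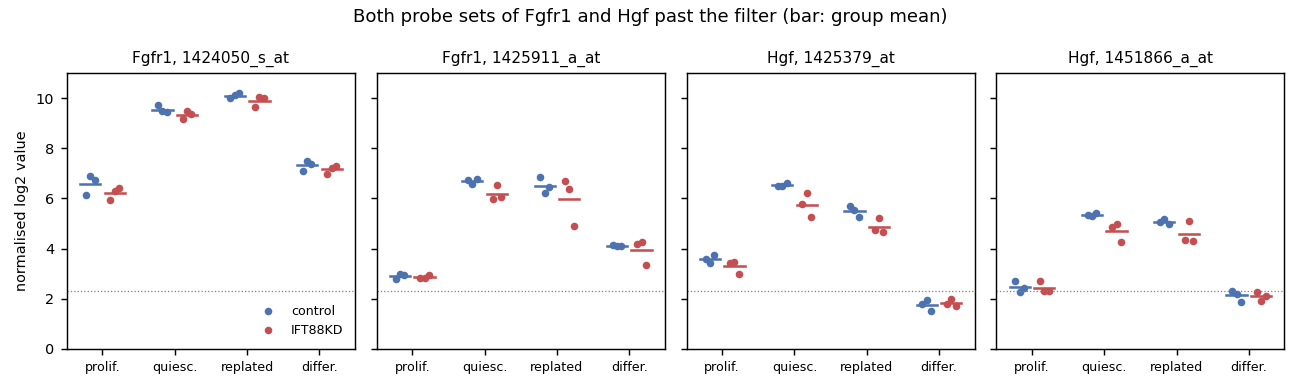
Normalised log2 values (vertical axis) of both probe sets of Fgfr1 and of Hgf on the 24 arrays, by state (horizontal axis) and siRNA (blue control, red IFT88KD). Points are arrays, bars are group means of 3 and the dotted line is the mean 40th percentile; both probe sets of each gene rise from proliferating to quiescent cells, while the change after replating differs between the 2 probe sets.

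For control replated against control quiescent cells the outcome depended most on the scaling: the deposited array medians were 2.92 to 2.98 in replated and 3.79 to 3.85 in quiescent cells. The median change of all genes was -0.10 log2 after quantile normalisation, and a gene's change was shifted from that by a median of -0.51 on the deposited values and 0.34 on values centred on the array median. Among all called genes 42.3% were higher after quantile normalisation, 12.6% on the deposited and 68.9% on the centred values. After quantile normalisation 2 of 7 genes were higher, 1 lower and 4 not called, against 64.3% of all genes (27.2% higher, 37.1% lower). On the deposited values 5 of 7 passed. Summed markers were lower on control replated than on control quiescent arrays for 4 lists: macrophage (7.34 to 7.46 against 8.05 to 8.07), fibroblast (9.39 to 9.72 against 10.16 to 10.49), adipocyte (8.10 to 8.49 against 8.94 to 9.47) and myotube (9.82 to 10.31 against 10.45 to 10.997). By limma's test 0 of 7 myotube markers passed, and 1 of 3 tested fibroblast markers and the 1 tested adipocyte marker were lower. Of 3 tested macrophage markers 1 was higher and 1 lower. Myoblast and bone and cartilage sums overlapped, and the part of the markers in these changes was not tested.

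Fgfr2 read 2.88, 2.38 and 2.64 on control quiescent and 3.87, 4.09 and 4.34 on control replated arrays. Every replated array was higher, and the rise of 1.47 log2 or 2.76-fold (SE 0.15, limma, adjusted p = 3.70e-08) was 0.62 on deposited and 1.48 on centred values, passing in both (adjusted p = 0.00124 and 1.98e-07). A second Fgfr2 probe set was above the 40th percentile on no array. Fgfr1 rose by 0.55 (SE 0.17, adjusted p = 0.00763), from 9.71, 9.49 and 9.45 to 10.001, 10.12 and 10.19 without overlap. That rise was 0.27 (adjusted p = 0.146) on deposited and 1.13 (adjusted p = 5.41e-06) on centred values, 0.18 (adjusted p = 0.375) on the mean of its probe sets, and -0.20 (SE 0.31, adjusted p = 0.598) on the second probe set alone.

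Hgf fell from its quiescent values of 6.49 to 6.62 to 5.71, 5.54 and 5.27 in control replated cells. The arrays did not overlap, and the fall of 1.04 log2 (-1.04, 2.05-fold lower; SE 0.20, limma, adjusted p = 1.09e-04) was -1.57 on deposited and -0.71 on centred values, passing in both. The second Hgf probe set changed by -0.28 (SE 0.20, adjusted p = 0.229 over probe sets), though again with no overlap. The 4 other genes depended on the scaling. Fgf21 changed by -0.40 (adjusted p = 0.343), but by -1.16 (adjusted p = 0.00867) on the deposited values, and Fgf7 by 0.60 (adjusted p = 0.0759; with the replicate block 0.0495, with array weights 0.0176), but by -0.25 (adjusted p = 0.459). Fgf7 also passed without control quiescent replicate 3 (0.78, adjusted p = 0.0431) or control replated replicate 1 (0.80, adjusted p = 0.0337). Fgfr3 changed by 0.24 (adjusted p = 0.162), but by -0.60 (adjusted p = 8.15e-04) on the deposited values, and Fgfr4 by -0.10 (adjusted p = 0.816), but by -0.85 (adjusted p = 0.0307) on the deposited values.

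In differentiating control cells, set against proliferating cells, 3 of 7 genes were higher, 1 lower and 3 not called, against 54.4% of all genes by limma's test (26.5% higher, 27.9% lower). Fgf21 read 8.00, 7.39 and 6.52 after 48 h, where the proliferating arrays had 1.90, 2.38 and 3.07. Its lowest differentiating array stood well above its highest proliferating array, although proliferating replicate 1 lay below the 40th percentile. The rise was 4.85 log2 or 28.9-fold (SE 0.36, adjusted p = 5.96e-10). Its size is uncertain, since the proliferating values lay around that percentile. Differentiating IFT88KD cells had 7.24, 6.99 and 6.44, within or just below the control range. The summed myotube markers were 13.63 to 13.77 on control differentiating arrays, against 6.79 to 10.02 on proliferating ones. Fibroblast sums were 7.21 to 8.70 against 5.30 to 5.70 and myoblast sums 11.77 to 11.94 against 10.47 to 11.14. Macrophage sums (4.87 to 4.92 against 5.09 to 5.37) and bone and cartilage sums (5.27 to 5.58 against 6.08 to 6.24) were lower, all of these without overlap. Of 6 tested myoblast markers 5 were higher and 1 lower by limma's test, with Myf5 falling from a mean of 6.18 to 5.04. Of 3 tested fibroblast markers 2 were higher and 0 lower. The mean of Dcn went from 2.15 to 7.72 and that of Pi16 from 1.90 to 3.16. Pdgfra went the other way without a call, from 4.96 to 4.52. The part of all these markers in the changes of this comparison was not tested.

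Fgfr4 read 4.74, 4.83 and 5.35 on control differentiating arrays, with its proliferating replicate 3 at 4.80 lying among them. It rose by 1.12 (SE 0.34, limma, adjusted p = 0.00905), and by 0.64 (adjusted p = 0.0967) without control proliferating replicate 1, and with the arrays of the compared groups only its adjusted p was 0.0557, the highest of 10 settings, of which the lowest was 6.67e-04. Of the other Fgfr4 probe sets, 1 passed the filter, but only through the 3 IFT88KD differentiating arrays. It lay below the percentile on all control arrays and gives no change for these comparisons. The 3 other Fgfr4 probe sets did not pass the filter. Fgfr1 read 7.09, 7.48 and 7.39, all above the proliferating arrays, and rose by 0.73 (SE 0.17, adjusted p = 0.00112), with 1.21 (SE 0.31, adjusted p = 0.00270) on its second probe set.

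Hgf fell in differentiating control cells to 1.80, 1.94 and 1.53, below the 40th percentile of every array. The groups were far apart, with a fitted change of -1.83 log2 (SE 0.20, limma, adjusted p = 1.11e-07), whose size is uncertain because the differentiating values are so low. Its second probe set, near the percentile in both states, changed by -0.34 (SE 0.20, adjusted p = 0.164 over probe sets). Fgf7 (-0.47, SE 0.29), Fgfr2 (-0.34, SE 0.15) and Fgfr3 (0.15, SE 0.15) were not called. Fgfr2 passed in 2 of 9 other settings, with array weights (-0.38, adjusted p = 0.0123) and with the arrays of the compared groups only (adjusted p = 0.0286). The adjusted p of the 9 ran from 0.0123 to 0.151. All control differentiating values of Fgfr2 lay below the 40th percentile and its proliferating values close to it. The size of its change is therefore uncertain. Among all called genes 48.7% were higher here, 44.6% on deposited and 34.8% on centred values.

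**Figure D4:**
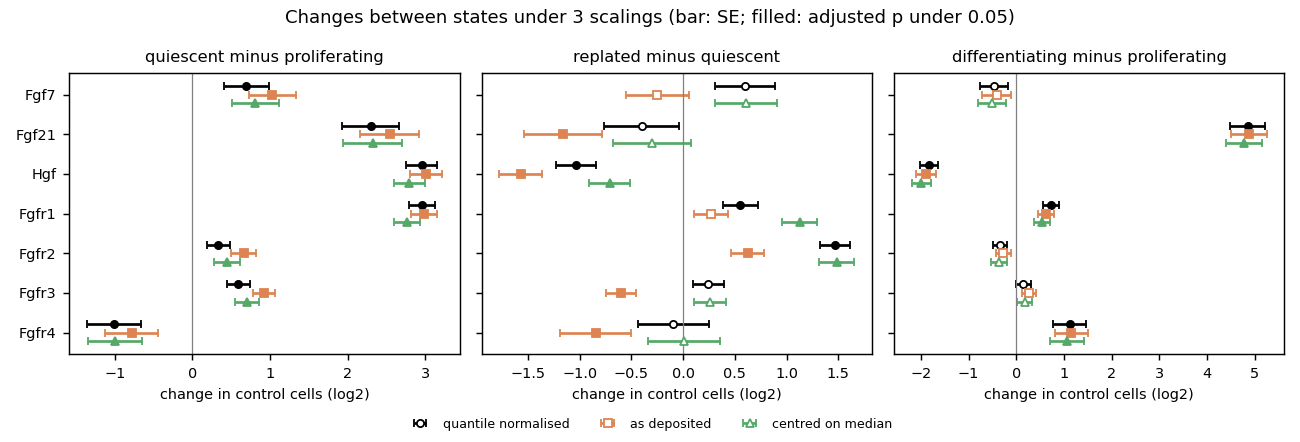
Change between states of control cells in log2 units (horizontal axis) for the 7 tested genes in the 3 comparisons. Points are limma estimates from 3 arrays per group, bars are standard errors and filled points have an adjusted p under 0.05; black circles are quantile normalised, orange squares deposited and green triangles centred values, and the 3 scalings spread furthest apart in the replated minus quiescent panel.

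Over all 8 groups the order of the means showed where each gene was highest. Fgf21 ranked differentiating (7.31 control, 6.89 IFT88KD), then quiescent and replated together (4.35 to 4.75), then proliferating (2.45 and 2.35). Arrays of neighbouring groups overlapped within each of these tiers and not between them. Hgf ranked control quiescent (6.54), IFT88KD quiescent (5.74), control replated (5.50), IFT88KD replated (4.88), proliferating (3.59 and 3.30) and differentiating (1.82 and 1.76). IFT88KD quiescent and control replated arrays overlapped, as did the siRNAs within proliferating and within differentiating cells, and the other neighbours did not.

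Fgfr1 ranked replated (10.10 and 9.90), quiescent (9.55 and 9.34), differentiating (7.32 and 7.18) and proliferating (6.59 and 6.23). Its replated and quiescent arrays overlapped only between IFT88KD replated and control quiescent, and the lower tiers stood apart. Fgf7 was highest in IFT88KD quiescent cells (4.80) and lowest in control differentiating cells (1.77), and every pair of neighbours in its order overlapped. The same held for Fgfr4, from control differentiating (4.97) down to control replated cells (2.74). Fgfr2 was highest in replated cells (4.19 and 4.10), apart from quiescent (2.85 and 2.64). Differentiating cells (1.96 and 1.84) were lowest and apart from proliferating ones, but Fgfr2 lay near or below the 40th percentile in both these states. Fgfr3 spanned 1.12 log2 in all, from 3.47 in IFT88KD replated to 2.35 in proliferating cells, and its only gap between neighbours lay below control quiescent cells (2.94).

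The genes below the filter stayed low in every group. Fgf2, a ligand widely used to keep myoblasts dividing, had group means of 0.93 to 1.24, and Fgf10, a ligand of lung and limb development, 0.999 to 1.54. Met had means of 1.30 to 1.98, with its single array above the percentile, control proliferating replicate 1, at 2.60. In a fit without the filter, Met changed by -0.65 (SE 0.19, limma, adjusted p = 0.00662) from proliferating to quiescent and by -0.68 (SE 0.19, adjusted p = 0.00660) to differentiating control cells. All levels behind these changes other than that one array were below the 40th percentile, and such low values say little about the amount of RNA.

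Across the 8 group means, the 7 tested genes fell into patterns that can be described without a test, since the groups share arrays, normalisation and states. Fgfr1 and Fgfr3 followed each other (Pearson r = 0.95, n = 8 groups), as did Fgf7 and Fgfr3 (r = 0.91), while Hgf and Fgfr4 ran opposite (r = -0.98). Among 5146 other genes that spanned at least 1 log2, the 3 most like Fgf21 were Hrc, Csrp3 and Atp2a1 (r = 0.992 to 0.997), which encode proteins of the sarcoplasmic reticulum and the sarcomere. Fgfr4 was most like Kif5b, Lsp1 and Ryr3 (r = 0.99), and Hgf most like Gpx8, Kazald1 and Samhd1 (r = 0.99). The closest to Fgf7 were Zfp423, Mmp16 and Hp (r = 0.96 to 0.97), to Fgfr1 Dnase2a, Sidt2 and Klf9 (r = 0.997), to Fgfr2 Apobr, Med26 and Lrrfip2 (r = 0.993 to 0.996) and to Fgfr3 Sptlc2, Lgals2 and Aoc3 (r = 0.98 to 0.99).

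The other genes of the route were followed through 5 lists. The lists share genes, so their counts are not independent. Plaur was in both the HGF activation and the feedback list, and Cbl in both the MAP kinase and the feedback list. Of 18 other FGF ligands on the array 4 passed the filter, and 0 of these 4 changed with the siRNA in any state by limma's test, also at an unadjusted p under 0.05. In control cells Fgf11, an intracellular member of the family, rose by 1.56 (SE 0.22, adjusted p = 1.67e-06) from proliferating to quiescent cells and Fgf4 fell by 0.50 (-0.50, adjusted p = 0.00332). Of all genes 70.5% were called in that comparison, and on the deposited values 2 of the 4 ligands were higher and 0 lower. Fgf9, Fgf11 and Fgf22 rose in differentiating cells, by 1.10 (adjusted p = 4.23e-07), 1.27 (adjusted p = 4.57e-05) and 0.40 (adjusted p = 0.00999), where 54.4% of all genes were called. The means of Fgf4 in quiescent cells (1.86) and of Fgf9 in proliferating cells (1.38) lay below the mean 40th percentile of 2.29. Those of Fgf22 did so in both states compared (1.88 and 2.28). The higher means of Fgf4 (2.37, proliferating) and Fgf9 (2.48, differentiating) were little above it, so the sizes of these changes are uncertain. The calls of Fgf4, Fgf9 and Fgf22 rest on values near the level that decided which genes were tested. After replating the 1 call was a fall of Fgf11 (-0.79, adjusted p = 0.00325), beside 64.3% of all genes called, but 0 were higher and 2 lower on the deposited and 3 higher and 1 lower on the centred values.

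Co-receptors and heparan sulphate genes counted 19 tested members. With the siRNA 1 rose and 0 fell in proliferating cells, beside 0.326% of all genes called: Sulf2, which trims heparan sulphate, rose by 1.27 (SE 0.26, limma, adjusted p = 0.0257). In quiescent cells 1 rose and 1 fell, beside 5.55% of all genes called: Ext1, a heparan sulphate polymerase (0.36, adjusted p = 0.0408), and Fgfrl1, a receptor without a kinase domain (-0.43, adjusted p = 0.0132). The list's median change was 0.076 there, beside -0.0041 over all genes, and in replated and differentiating cells 0 of 19 passed (4 and 2 did at a p under 0.05 without adjustment). From proliferating to quiescent control cells 13 rose and 3 fell, where 70.5% of all genes were called, with a median of 0.55 beside 0.043 over all genes. On centred values 9 rose and 5 fell. The cell surface proteoglycans Gpc6 (2.29), Sdc1 (1.92) and Sdc2 (1.68) and the sulphatase Sulf2 (1.83) rose most. After replating 5 rose and 7 fell, near the 64.3% of all genes called (median -0.14, all genes -0.10), but 4 and 11 on the deposited and 12 and 1 on the centred values, and in differentiating cells 8 rose and 2 fell (median 0.19, all genes -0.022), where 54.4% of all genes were called, but 6 and 4 on the centred values.

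Genes of HGF activation and Met co-factors counted 7 tested members. In quiescent IFT88KD cells 1 rose and 1 fell, where 5.55% of all genes were called: Plat, the tissue plasminogen activator, rose by 0.82 (SE 0.18, limma, adjusted p = 0.00856) and Itgb4, the beta-4 integrin that partners Met, fell by 0.62 (-0.62, adjusted p = 0.0316). Plat also rose in replated IFT88KD cells, by 0.83 (SE 0.18, adjusted p = 0.0138), the 1 call of the list beside 2.63% of all genes. In proliferating and differentiating cells 0 of 7 passed (0 and 1 did at a p under 0.05 without adjustment). From proliferating to quiescent control cells 3 rose and 3 fell, beside 70.5% of all genes called. Itgb4 was among those that rose (adjusted p = 9.12e-15), from a mean of 1.35, below the mean 40th percentile of 2.29, to 5.36, so the size of its rise is uncertain. After replating 5 rose and 0 fell, beside 64.3% of all genes called (median 0.46, all genes -0.10), with the urokinase gene Plau at 2.31 and its receptor gene Plaur at 1.93, but 3 rose and 2 fell on the deposited values. In differentiating cells 2 rose and 3 fell, where 54.4% of all genes were called. Spint1, an inhibitor of HGF-activating proteases, was lower there (adjusted p = 1.79e-06), at a mean of 1.66, below that percentile, against 2.86.

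Adaptors and the MAP kinase route counted 17 tested members, of which 1 changed with the siRNA. Nras fell in quiescent cells by 0.52 (-0.52, SE 0.11, limma, adjusted p = 0.00419), where 5.55% of all genes were called. In the other 3 states 0 of 17 passed. Without adjustment, 1 had a p under 0.05 in proliferating cells and 0 in replated and differentiating cells. In control cells 6 rose and 5 fell on entry to quiescence, where 70.5% of all genes were called, and 4 rose and 6 fell on the centred values. The calls included the kinase gene Map2k1 at 1.36, the docking protein gene Gab1 at 1.21 and the phosphatase gene Ptpn11 at -1.10. After replating 9 rose and 2 fell, where 64.3% of all genes were called, but 3 rose and 7 fell on the deposited values. In differentiating cells 5 rose and 2 fell, beside 54.4% of all genes, but 2 rose and 4 fell on the centred values. The calls included the scaffold gene Ksr1 at 1.80 (SE 0.12).

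Feedback inhibitors and target genes of FGF signalling counted 16 tested members. Ccnd1, which encodes cyclin D1, was the 1 that passed with the siRNA, higher by 1.33 in quiescent cells (SE 0.25, limma, adjusted p = 0.00222) and by 1.20 in replated cells (SE 0.25, adjusted p = 0.00985). Of all genes 5.55% and 2.63% were called in these states. On the centred values 2 of the 16 were higher in replated cells. In proliferating and differentiating cells 0 of 16 passed (0 and 1 did at a p under 0.05 without adjustment). In control cells 6 rose and 6 fell on entry to quiescence, near the 70.5% of all genes called, with the immediate early gene Fos at 4.45 (SE 0.65), the cytokine gene Lif, whose proliferating mean of 1.92 lay below the mean 40th percentile, at 2.24 (SE 0.48) and Ccnd1 at -3.29 (SE 0.25). After replating 12 rose and 4 fell, beside 64.3% of all genes called, with a median of 0.90 beside -0.10 over all genes, and 8 rose and 4 fell on the deposited values. The 4 that fell were Fos (-3.61), Egr1 (-1.91), Spry1 (-1.49) and Spry4 (-0.99); Egr1 and Spry4 are named after their values were seen. In differentiating cells 3 rose and 6 fell, near the 54.4% of all genes called (median -0.30, all genes -0.022), and the inhibitor gene Spry1 rose by 2.68 (SE 0.21, adjusted p = 1.16e-09).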

How the data were processed

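RNA of 24 samples was measured on Affymetrix mouse arrays. Per the labels' protocols, total RNA was turned into biotin-labelled cRNA. The deposited values are log2 expression values made by the authors, with 0 columns of other samples used; GCOS, Affymetrix Expression Console and affy are named per the submitters' processing notes, with versions and normalisation method not given in the sources used here. Sorted deposited values differed by 0.0384 to 0.0813 within a state and by 0.443 over all arrays, so the values were quantile normalised over the 24 arrays before testing, which can move changes between states.

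Each gene stands for its probe set with the highest mean, x_at probe sets aside where another existed. Genes above an array's 40th percentile on at least 3 arrays were kept (8597). One limma 3.58.1 model (R 4.3.3) had a coefficient per group without blocks and gave 10 contrasts; p-values were adjusted by Benjamini-Hochberg over all genes kept, with a threshold of 0.05. The model was tested on simulated data. No 2 arrays held the same values. Plots were drawn with matplotlib 3.10.9.

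The genes and lists were chosen with earlier results of these data known. All 10 genes are named. Up to 4 genes of each list were named among siRNA changes and up to 4 among state changes, the largest called changes whose arrays did not overlap, and up to 3 genes by likeness; those named after their values were seen are marked. Summed marker levels are log2 of summed linear values.

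Arrays of the same replicate number deviated together from their group means. Over genes, the correlations of IFT88KD with control arrays lay between 0.303 and 0.708 (proliferating), 0.252 and 0.493 (quiescent), 0.254 and 0.452 (replated), and 0.422 and 0.678 (differentiating), and for unequal numbers at 0.112 or below, so the numbers pair the samples within a state. Among control arrays they lay between 0.136 and 0.414 for replated with quiescent, 0.170 and 0.297 for differentiating with proliferating, and -0.031 and 0.062 for quiescent with proliferating. Other settings were: deposited values, values centred on the median of each array, all genes without a filter, a stricter percentile of 60, averaged or separate probe sets, limma's trended robust variance, weighted arrays, the replicate block, a fit of the compared groups alone, and the removal of single arrays. For siRNA effects and their differences the block was the replicate number within a state. For changes between control states it was an effect of each replicate number shared over all states. The correlations of quiescent with proliferating arrays above showed no such shared effect.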

Additional observations from a re-analysis of the deposited data

How the results depend on the processing

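Counts among the 7 tested genes changed in some settings. With array weights 1 gene was called for the siRNA in proliferating cells. With only the compared groups' arrays 1 was called in quiescent cells and 1 for the difference of quiescent and proliferating effects. The replicate block gave 3 calls in replated cells and 1 for that difference, and Fgf7 passed between replated and quiescent control cells with it; it changed no other call of these counts. The deposited values gave 5 calls between replated and quiescent cells. Leaving out each array gave 1 to 2 calls for the siRNA in quiescent cells, 0 to 1 in replated cells, 4 to 6 between quiescent and proliferating control cells, and 0 to 1 for the difference of effects. The change of sign between replated and quiescent control cells concerned Fgf7 (-0.25) and Fgfr3 (-0.60) on deposited values, Fgfr4 on centred values (0.0108), Fgfr3 on the mean of probe sets (-0.0052) and Fgfr4 without control replated replicate 2 (0.0073). The cause was not tested.

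Over all genes, 28 calls for the siRNA in proliferating cells became 197 with array weights, 164 with the block and 0 with the compared arrays only. In quiescent cells 477 became 952 with array weights, 1273 with the block and, without single arrays, 271 at the lowest. In replated cells 226 became 437 with array weights, 920 with the block, 75 with the compared arrays only and 132 at the lowest without single arrays. In differentiating cells 12 became 36 with array weights, 101 with the block and 0 with the compared arrays only. The differences of effects went from 90 to 256 with array weights and 329 with the block (quiescent and proliferating), from 0 to 5 with the block (replated and quiescent) and from 4 to 37 with the block (differentiating and proliferating). Signal limited Fgf7 and Fgfr2 most among the 7 genes, since each lay above the 40th percentile on 15 of 24 arrays.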
